A study of Mus musculus with 12 samples.

Results

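The Precursors are the cells that the authors' deposited table annotates with that name among the innate lymphoid cells (ILCs) sorted from synovial joints of mice. They number 344 of the 4491 cells annotated as ILC in a table of 8042 cells, beside 2373 cells annotated ILC2 (in 3 subclasses) and 1774 annotated ILC3 (in 2 subclasses). All mice were of the strain R5 x R26tdTomato, with genotype Il5 wt/Cre; R26 tdTom/tdTom, and 8 to 10 weeks old, so every group carries Cre at an Il5 allele, and tdTomato marks cells that made Cre from that locus or descend from such cells. The sort gate took viable CD45+ tdTomato+ cells without CD3, TCRb, TCRgd, CD11b or GR-1, from ankle and wrist joints. The groups described here are untreated (healthy) mice and mice with serum transfer arthritis (STA) that also received Il23mc, which the library titles call IL23, with 3 hashtagged mice in 1 well each, and 1 healthy hashtag of a second experiment, for which the number of animals is not given. No cell of the STA wells or hashtags without Il23mc carries an annotation, so STA alone is not analysed here, and a difference between Il23mc and healthy mice holds the arthritis, the Il23mc and the well together, which cannot be told apart.

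ILC precursors are lymphoid cells that have lost the potential for T and B cells and give rise to the helper ILC lineages. They are defined in bone marrow and fetal liver by the transcription factors Zbtb16 (PLZF) and Tcf7 (TCF-1), the inhibitor of DNA binding Id2 and the interleukin-7 receptor chain Il7r, and tissues hold ILCs with progenitor features that keep Tcf7. Mature ILC2 depend on Gata3 and Rora, sense interleukin-33 through Il1rl1 (ST2) and secrete interleukin-5 (Il5), interleukin-13 (Il13) and amphiregulin (Areg), while ILC3 secrete interleukin-17 and interleukin-22.

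Each cell was tied to its mouse by a hashtag antibody, whose oligo was read beside the RNA. The 3 oligos used in each ILC well are shown because they define the replicate in experiment 1, and their full length of 15 bases is the barcode.
Hashtag 1: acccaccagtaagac
Hashtag 2: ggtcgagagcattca
Hashtag 3: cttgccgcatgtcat

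The Precursors numbered 20, 47 and 41 cells in healthy mice 1 to 3, 13, 36 and 48 in Il23mc mice 1 to 3 and 139 in the experiment 2 hashtag, with 50831 to 715803 UMIs (unique molecular identifiers, counts of captured RNA molecules) in the summed cells of a hashtag. Their median UMI count per cell (2991 to 4870 over the 7 hashtags) was below that of ILC2 and of ILC3 in every hashtag. Their median mitochondrial share (4.75 to 6.69% of UMIs) was above both other classes in 7 of 7 hashtags, and so was the share of the nuclear RNA Malat1 (2.30 to 3.53% of UMIs). The authors' stress score was lower in Precursors than in ILC2 in 7 of 7 hashtags. These values move with the class in every comparison of classes below, and their part in the differences was not tested. No cell barcode of a Precursor was shared between wells.

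The marker genes of a precursor did not set the class apart. Levels are counts per 1000000 UMIs (CPM) of the summed cells of 1 class and 1 hashtag. Zbtb16 had no UMI in any of the 108 Precursors of the healthy mice of experiment 1, which allows a share of cells with a UMI of up to 2.78%, and 3 of all 344 cells held one. At full depth that is 0.872% of Precursors, beside 1.73% of ILC2 and 7.38% of ILC3. By hashtag, Zbtb16 stood at 0, 0 and 0 CPM in the healthy mice, 19.7, 14.2 and 0 in the Il23mc mice and 1.4 in the experiment 2 hashtag. Tcf7 stood at 56.4, 55.8 and 68.7 CPM in the healthy mice, 19.7, 7.12 and 17.3 in the Il23mc mice and 25.1 in the experiment 2 hashtag, against 12.1 to 76.7 CPM in ILC2 and 11.7 to 124 CPM in ILC3. The Tcf7 ranges of the 3 classes overlap, and the Il23mc mice have the lowest values in Precursors. Il7r stood at 944, 1060.5 and 899 CPM in the healthy mice, 826, 1253 and 1170.1 in the Il23mc mice and 828 in the experiment 2 hashtag, a range that overlaps 546 to 1273 CPM in ILC2. Id2 stood at 606, 547 and 1025 CPM in the healthy mice, 905, 939.8 and 721 in the Il23mc mice and 750.2 in the experiment 2 hashtag, below ILC2 (1203 to 1779 CPM) and below ILC3 in each of the 7 hashtags. Between hashtags it overlaps Id2 of the subclasses ILC2-1 (616 to 1259 CPM) and ILC3-1 (680 to 1198 CPM).

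Most of the cells held a UMI of Gata3 or Il1rl1, as did most cells of both other classes. Of the 344 Precursors, 93.0% held a UMI of Gata3 or Il1rl1 (exact binomial 95% interval 89.8 to 95.5%), beside 95.4% of ILC2 and 70.0% of ILC3. Tcf7 or Zbtb16 was seen in 11.9% of Precursors, 11.8% of ILC2 and 30.4% of ILC3, and 35 of the 41 Precursors with such a UMI held Gata3 or Il1rl1 as well. Intervals of this kind cover counting error only. The shares above are of cells at their full depth, which was lowest in Precursors. As a yardstick of free RNA at that depth, Lyz2 and Col1a1, markers of cells outside the gate, were detected in 0.581 and 0.872% of Precursors. Each was detected in 0.581% of Precursors thinned to 2000 UMIs. Gata3, the ILC2 master regulator, stood at 564, 636 and 618 CPM in the healthy mice, 571, 513 and 461 in the Il23mc mice and 668 in the experiment 2 hashtag. In ILC2 it stood at 1431, 1359 and 1141 CPM in the healthy mice, 1012, 1309.9 and 1383 in the Il23mc mice and 1465 in the experiment 2 hashtag, so Gata3 was lower in Precursors in every hashtag and the ranges of these 2 classes do not overlap. Gata3 stood at 121 to 982 CPM in ILC3, with every healthy mouse above its Precursors, and at 281 to 933 CPM in the subclass ILC2-1, a range that holds all values of Precursors. The 6 ILC2 markers summed to a median of 1452 CPM in Precursors, 4709.8 in ILC2 and 1997 in ILC3. Il1rl1 stood at 334 to 691 CPM in Precursors, 417 to 1075 CPM in ILC2 and 13.6 to 192 CPM in ILC3. Zbtb16 does not bear out the name given to the class, but few cells of Precursors or ILC2 held a UMI of it. Id2 goes against the name beside summed ILC2 and ILC3, while it overlaps ILC2-1 and ILC3-1. Tcf7 does not set the class apart. Il7r does not go against the name. Thinned to 2000 UMIs, Il7r was detected in 79.1% of Precursors, 70.1% of ILC2 and 64.0% of ILC3, with ranges over hashtags that overlap. The class is called here by the authors' word alone.

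Of the 26 genes of a broader precursor list, 15 were measured against ILC2 (at least 50 CPM in either class on average). Only Tcf12, an E-protein transcription factor, was higher in every hashtag, and Pdcd1, Cxcr6, Nfil3, Id2 and Kit were lower in every hashtag, beside 10.5 and 13.7% of all 2684 genes measured, with a list median of -0.22 on the log2 scale where that of all genes was 0.03. Nfil3, a factor needed for ILC development, had a median of 28.2 CPM over hashtags in Precursors and 78.8 in ILC2. Tox stood at 40.3 to 113 CPM and Lef1 at 0 to 23.1 CPM in Precursors, and at 54.6 to 102 CPM and 6.29 to 21.3 CPM in ILC2. Mki67, a marker of dividing cells, was detected in 2.33% of Precursors (exact binomial 95% interval 1.01 to 4.53%), 1.85% of ILC2 and 3.72% of ILC3 thinned to 2000 UMIs, and in 3.49, 4.34 and 8.57% of the same cells unthinned.

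Among the 5 annotated subclasses, the one nearest to Precursors was ILC2-1. Over 2444 genes the correlation of log2 CPM within a hashtag had a median of r = 0.912 for ILC2-1, 0.896 for ILC2-2, 0.836 for ILC2-3, 0.859 for ILC3-1 and 0.817 for ILC3-2. These correlations are across genes of sums that share a library, are given as a description, and their ranges over hashtags overlap (0.786 to 0.965 for ILC2-1). At a median of 12.2% of genes the levels of Precursors and ILC2-1 differed by 2-fold or more. Il5 had a median over hashtags of 21.4 CPM in Precursors, 40.5 in ILC2-1, 569.8 in ILC2-2 and 2310.3 in ILC2-3. Txnip followed the opposite order, with medians of 271 CPM in Precursors, 255 in ILC2-1, 90.6 in ILC2-2 and 37.6 in ILC2-3. Bcl2 was at a median of 239.6 CPM in Precursors and 114 in ILC2-1, and the levels of these 2 classes overlap between hashtags (143 to 335 and 71.0 to 255 CPM). Precursors and ILC2-1 also overlap in Il5 (0 to 121 and 21.0 to 127 CPM), Il13 (0 to 177 and 0 to 116), Areg (39.1 to 433 and 306 to 878) and Crem (42.3 to 202 and 99.6 to 352). The separation from ILC2 given for Il5, Areg and Crem thus holds for the 3 subclasses summed and not for ILC2-1. For Il13 the range of Precursors overlaps that of summed ILC2 as well.

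Against ILC2 of the same hashtag, the effector cytokine genes stood lowest. An annotation of this kind rests on the expression of the same cells, so differences between them are a description and carry no test. A gene is counted as higher or lower when its log2 CPM difference (5 CPM added to each level) had the same sign in all 7 hashtags and averaged at least 2-fold. By this rule 36 of 2684 genes were higher (1.34%) and 184 lower (6.86%). Counts within gene lists use the sign in all 7 hashtags alone, whatever the size. By sign alone, 10.5% of the 2684 genes were higher than in ILC2 and 13.7% lower. Scaling by TMM (trimmed mean of M values) instead of total UMIs moved the median of all genes by -0.22, from 0.03 to -0.19, and the counts to 12 higher and 291 lower, so that 3.96% of the counted genes were higher in place of 16.4%.

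Il5 stood at 0, 16.7 and 51.5 CPM in the healthy mice, 0, 21.4 and 121 in the Il23mc mice and 43.3 in the experiment 2 hashtag in Precursors. In ILC2 it stood at 551, 977 and 842 CPM in the healthy mice, 777, 1618 and 909 in the Il23mc mice and 756 in the experiment 2 hashtag, so every hashtag of ILC2 lies above every hashtag of Precursors. The mean difference was -5.18 ± 1.64 (SD, n = 7) on the log2 scale. Il13 stood at 14.1, 39.1 and 177 CPM in the healthy mice, 0, 7.12 and 0 in the Il23mc mice and 69.9 in the experiment 2 hashtag in Precursors, and at 167 to 861 CPM in ILC2, with a mean difference of -4.33 ± 1.24 (SD, n = 7). The ranges of Il13 in Precursors and ILC2 overlap. Areg, the EGF-family growth factor, stood at 70.5, 39.1 and 200.4 CPM in the healthy mice, 433, 164 and 213 in the Il23mc mice and 334 in the experiment 2 hashtag in Precursors and at 683 to 1744 CPM in ILC2, without overlap. Of the 9 listed type 2 and repair cytokines 5 were measured, and Il5, Il13, Csf2 (GM-CSF, -3.94) and Areg (-2.69) were lower in every hashtag. The chemokine genes Ccl1 (-3.60), Cxcl2 (-3.24) and Cxcl3 (-2.72), which attract leukocytes and neutrophils, were lower too. So was Hilpda, a lipid droplet protein induced by hypoxia (-3.76). Between hashtags, Precursors overlap ILC2-1 in Csf2 (0 to 81.0 and 10.1 to 131 CPM), Cxcl2 (85.9 to 392 and 123 to 1010) and Hilpda (0 to 340 and 98.9 to 387).

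At equal depth, too, fewer Precursors than ILC2 held a cytokine UMI. After every cell was thinned to 2000 UMIs (no cell was shallower), Il5 was detected in 21 of 344 Precursors, 28.3% of ILC2 and 8.23% of ILC3. Before thinning the shares for Il5 were 10.5, 36.4 and 15.7%. Il13 was detected in 21 of 344 thinned Precursors, 24.1% of ILC2 and 19.9% of ILC3, and Areg in 18.6, 57.2 and 36.2% of the 3 classes. At least 1 UMI of Il4, Il5, Il13, Areg or Csf2 was present in 6.38 to 43.9% of the thinned Precursors of a hashtag, in 60.7 to 77.3% of ILC2 and in 35.5 to 62.9% of ILC3. The range of Precursors does not meet that of ILC2, and the experiment 2 hashtag is its highest value. Lyz2, the yardstick of free RNA, was detected in 0.581% of Precursors and 0.59% of ILC2 at this depth.

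Genes of activation and tissue residency were lower alongside the cytokines. The list counts here and in the next paragraph stand beside 13.7% of all measured genes lower than ILC2 in every hashtag. Of 13 measured residency genes 11 were lower in every hashtag (median -1.37), among them Crem (-2.77), a cAMP-response regulator, the nuclear receptors Nr4a3 (-2.24), Nr4a2 (-2.00) and Nr4a1 (-1.44), and the G-protein signalling regulator Rgs1 (-1.63). Crem stood at 42.3, 123 and 57.3 CPM in the healthy mice, 59, 78.3 and 202 in the Il23mc mice and 75.4 in the experiment 2 hashtag in Precursors against 362 to 989.7 CPM in ILC2. No hashtag of Precursors reaches a value of summed ILC2 for Crem, while it overlaps ILC2-1 as given above. For Nr4a3, too, Precursors and ILC2-1 overlap between hashtags (74.4 to 275 and 193 to 507 CPM). Of 18 measured immediate early genes, which are induced within minutes of stimulation and also by tissue dissociation, 12 were lower in every hashtag (median -0.98), with Dusp1 at -1.37, Junb at -1.05 and Fos at -0.94. None of these 18 was higher in every hashtag. Many of the residency genes are themselves activity-induced, and the 2 lists share members.

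The machinery that carries activating signals showed the same direction. Of 16 measured genes of the NF-kB pathway, a list added after values were seen, 12 were lower in every hashtag (median -1.17), among them the subunits Nfkb1 (-1.19), Rel (-2.07) and Rela (-1.20), and the inhibitor Nfkbia (-1.42), which NF-kB itself induces. The costimulatory receptors Tnfrsf9 (4-1BB, -2.80) and Icos (-1.45) were lower, as were Il2ra (-1.24), the high-affinity chain of the interleukin-2 receptor, and Plaur (-3.01), the urokinase receptor. Icos stood at 177 to 605 CPM in Precursors and 547 to 1279 CPM in ILC2. Of 12 measured activation genes 7 were lower in every hashtag, and of 10 cytokine receptor genes of the JAK-STAT family 5 were (Il2rb, Il4ra, Il2ra, Ifngr1 and Ifnar1) while Il27ra was higher. Of the 18 measured ILC2 markers 10 were lower in every hashtag, Gata3 and Rora among them, and Cysltr1, a leukotriene receptor, was higher.

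Genes above ILC2 were fewer, with smaller differences. The anti-apoptotic gene Bcl2 stood at 239.6, 162 and 143 CPM in the healthy mice, 256, 335 and 271 in the Il23mc mice and 148 in the experiment 2 hashtag in Precursors. In ILC2 it stood at 88, 50.2 and 51.5 CPM in the healthy mice, 66.9, 118 and 144 in the Il23mc mice and 75.5 in the experiment 2 hashtag. Every ILC2 value but the highest (Il23mc mouse 3) lies below every Precursors value, and the mean difference was 1.36 ± 0.35 (SD, n = 7). In the same family Bcl2a1d (-2.84), an NF-kB target whose near-identical copies make its counts uncertain, was lower. Txnip, an inhibitor of glucose uptake and of thioredoxin that is high in resting lymphocytes, stood at 268, 273 and 281 CPM in the healthy mice, 157, 228 and 271 in the Il23mc mice and 454 in the experiment 2 hashtag in Precursors and at 70.8 to 171 CPM in ILC2, a mean difference of 1.12 ± 0.43 (SD, n = 7). Thinned to 2000 UMIs, Bcl2 was detected in 31.1% of Precursors and 15.2% of ILC2, and Txnip in 39.0 and 19.3%. In every hashtag, whatever the size, 10.5% of all measured genes were higher than in ILC2 and 13.7% lower. Of 12 quiescence genes measured only Bcl2 and Txnip were higher in every hashtag, and Btg1, Btg2 and Tsc22d3 were lower, with a list median of -0.45. Klf2, a quiescence factor, was not among them and stood at 7.12 to 190.0 CPM in Precursors.

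The rest of the largest positive differences were Tmem106b (1.46), Zfp329 (1.44), the cytidine deaminase Apobec3 (1.37), Ttc5 (1.28), Dennd1c (1.26), Tasor (1.26), a subunit of a heterochromatin silencing complex, Lrif1 (1.24), Zfp280d (1.22), the guanylate-binding protein Gbp4 (1.22), Trim12a (1.20) and Nbeal1 (1.17). Apobec3 stood at 409, 374 and 321 CPM in the healthy mice, 413, 349 and 444 in the Il23mc mice and 272 in the experiment 2 hashtag in Precursors and at 97.7 to 203 CPM in ILC2, with no overlap. Of 5 measured lymphocyte GTPases of the Gimap family (a list added after values were seen) Gimap1 and Gimap3 were higher in every hashtag, with a median of 0.76. Under TMM scaling these median differences fall with that of all genes, to 0.58 for the Gimap list.

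**Figure D1:**
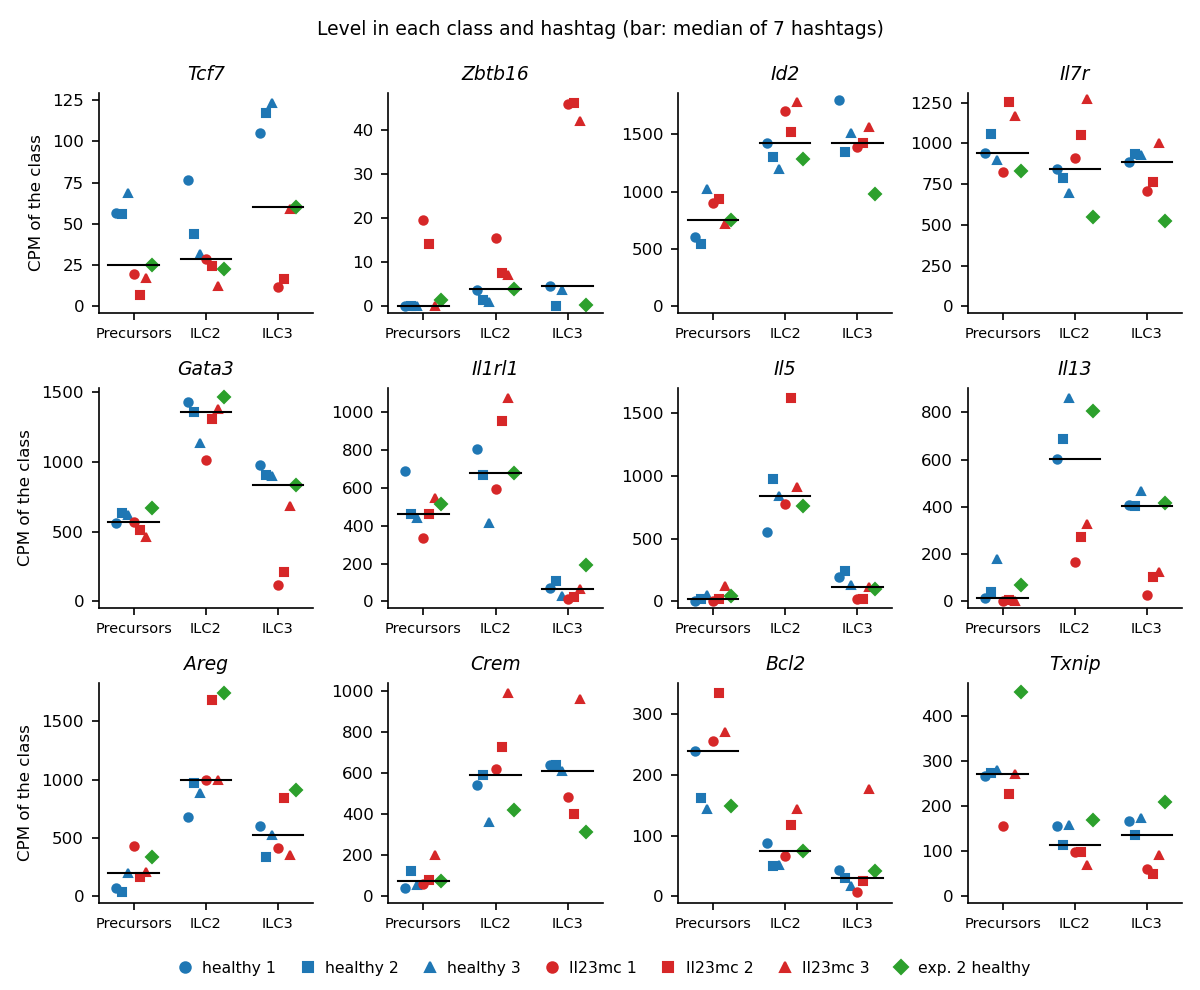
Levels (CPM, linear axes that start at 0) of 12 genes in the summed cells of Precursors, ILC2 and ILC3, with 1 point per hashtag and a bar at the median of the 7 hashtags. Il5, Areg and Crem of Precursors lie below those of ILC2, and Il13 does so within each hashtag. Bcl2 and Txnip lie mostly above, and Tcf7, Zbtb16 and Il7r overlap.

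Against ILC3, 135 of 2903 measured genes were higher by the same rule (4.65%) and 308 lower (10.6%), with a median of -0.13. In every hashtag, whatever the size, 12.3% of genes were higher and 19.4% lower. The largest positive difference was Il1rl1, at 3.08 ± 1.04 (SD, n = 7). Slc7a8 (2.73), an amino acid transporter, Bcl2 (2.49), Swap70 (2.47), Gimap3 (2.44), the arginase Arg1 (2.29), the phosphatase Inpp4b (2.27) and Uvssa (2.22) followed. Arg1, an enzyme that ILC2 and their precursors are known to hold, stood at 113 to 357 CPM in Precursors, 145 to 303 CPM in ILC2 and 2.2 to 178 CPM in ILC3. Lower genes were led by Bcl2a1d (-3.75), the tumour necrosis factor receptor Tnfrsf1b (-3.69), Bcl2a1b (-3.43), Sfn (-3.42), Cd7 (-3.27), the lymph node homing receptor Ccr7 (-3.25), Il13 (-3.14) and the decoy receptor Il1r2 (-3.13).

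Glycolytic and cytoskeletal genes were lower than in ILC3. Of 12 measured glycolytic genes 10 were lower than ILC3 in every hashtag (median -1.24), against 3 of 10 lower than ILC2 (median -0.28). Gapdh stood at 859.8, 826 and 1111 CPM in the healthy mice, 571, 669 and 686 in the Il23mc mice and 706 in the experiment 2 hashtag in Precursors, and at 1309 to 2290.2 CPM in ILC3, where every value lies above those of Precursors. Of 25 genes of S100 proteins, annexins and cytoskeleton (a list added after values were seen) 16 were lower than ILC3 in every hashtag and 4 lower than ILC2. Immediate early genes were split, with Jun, Fosb, Fos and Klf6 higher than ILC3 in every hashtag and Jund and Junb lower. Whether the difference from ILC3 exceeds that from ILC2 was not tested.

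Cells with T cell genes bear on this contrast. A UMI of Cd3d or Cd3e, subunits of the T cell receptor complex that the gate should remove, was present in 17 of 344 Precursors (4.94%), in 135 of 2373 ILC2 (5.69%) and in 638 of 1774 ILC3 (36.0%), the last reaching 88.7% of cells in Il23mc mouse 1. Without all cells that held such a UMI, a setting chosen after seeing the data, 121 genes were higher and 312 lower than in ILC3, and 43 higher and 194 lower than in ILC2.

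**Figure D2:**
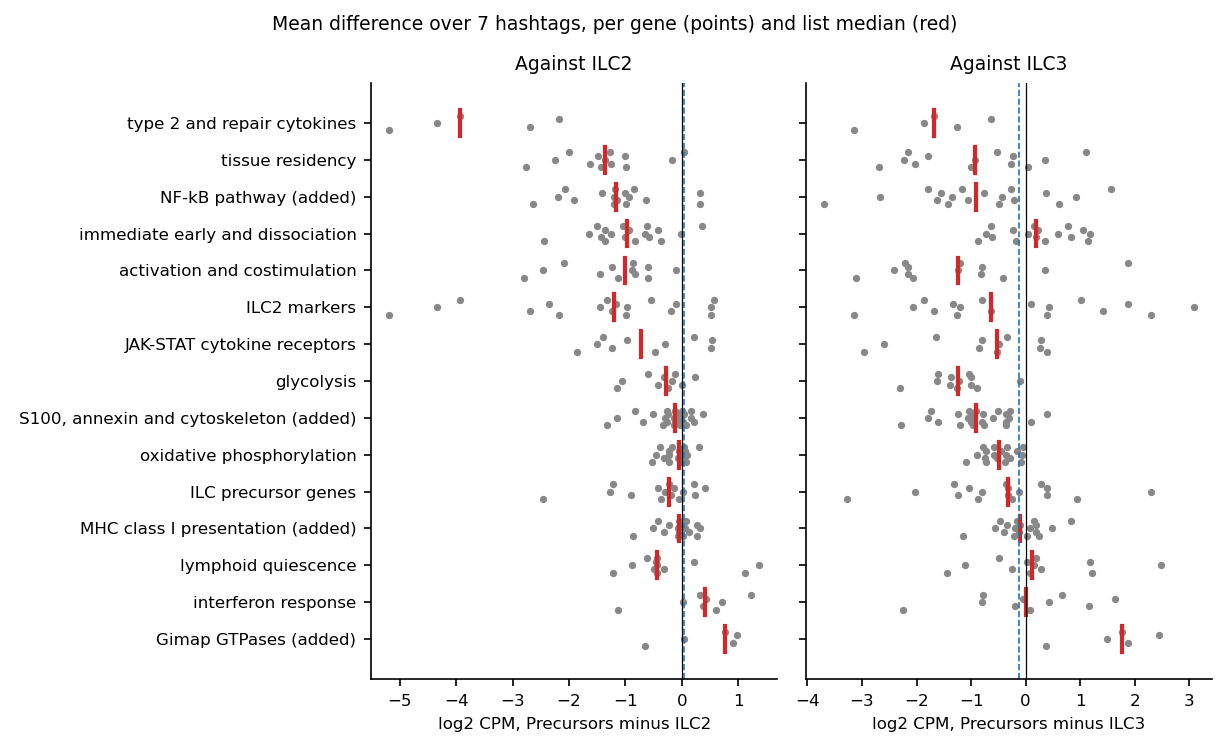
Mean log2 CPM difference over 7 hashtags between Precursors and ILC2 (left) or ILC3 (right) for each measured gene of 15 lists, with 1 grey point per gene, a red bar at the list median and a dashed line at the median of all measured genes. Type 2 cytokines, residency, NF-kB and immediate early genes lie below ILC2, and glycolytic and cytoskeletal genes below ILC3, while Gimap genes lie above both.

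The share of Precursors did not differ detectably between conditions. Precursors made up 6.94, 7.65 and 5.59% of the annotated ILCs of healthy mice 1 to 3, and 1.95, 6.51 and 14.4% in Il23mc mice 1 to 3, with 10.7% in the experiment 2 hashtag. The 3 Il23mc mice span the healthy range on both sides. The means were 6.73% ± 1.05 (SD, n = 3) and 7.61% ± 6.28 (SD, n = 3), a difference of 0.880 percentage points (two-sided exact permutation test, p = 0.9, where 0.1 is the smallest p this design allows). The denominator moved with ILC3, which made up 8.38 to 69.4% of annotated cells. Among Precursors and ILC2 alone, the share was 9.85, 10.1 and 15.2% in the healthy mice, 6.37, 10.8 and 15.7% in the Il23mc mice and 14.8% in the experiment 2 hashtag, and the difference of means was then -0.755 percentage points. Leaving out Il23mc mouse 3 also turned the direction, to -2.50 percentage points.

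**Figure D3:**
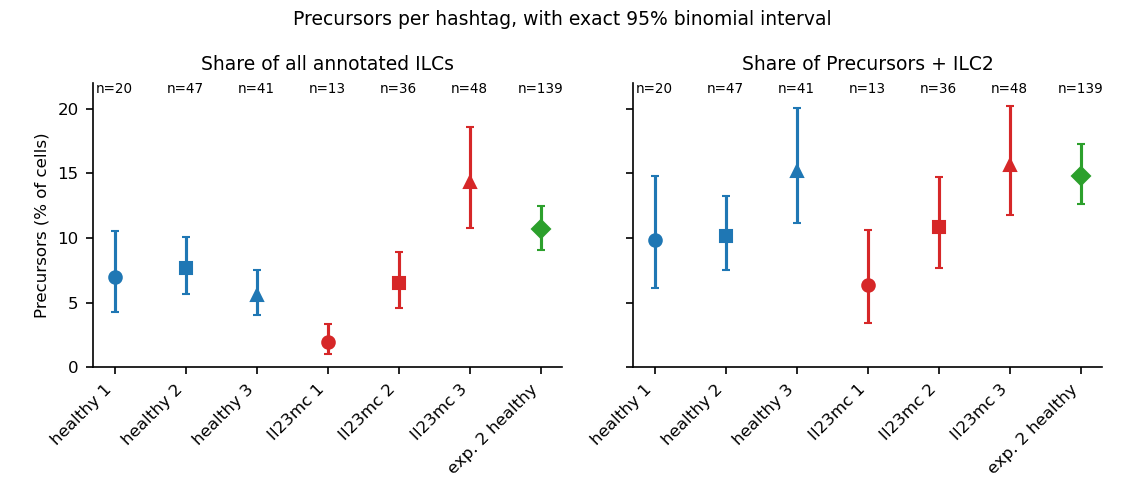
Precursors as a share (%) of all annotated ILCs (left) and of Precursors and ILC2 together (right), with 1 point per hashtag, exact 95% binomial intervals and the number of Precursors above. Il23mc mouse 1 has the lowest share in both panels, and Il23mc mouse 3 the highest.

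Within Precursors, interferon-response and antigen-presentation genes were higher in the Il23mc mice than in healthy mice, and genes of S100 proteins and cytoskeleton were lower. UMI sums of Precursors per mouse were compared for 1991 genes (edgeR quasi-likelihood test, 3 mice against 3, Benjamini-Hochberg adjusted p under 0.05). Of these, 72 rose (3.62%) and 31 fell (1.56%), and 331 had an unadjusted p under 0.05. For 100 of the 103 called genes the groups did not overlap, as for 22.9% of all genes tested. DESeq2 called 69 genes, among them 64 of the 103, and gave no adjusted p for 26 of the 103. Leaving out a mouse gave 43 to 95 calls, with 43 without healthy mouse 2 and 52 without Il23mc mouse 3, and 28 genes were called in every such run. The experiment 2 hashtag, which did not enter the test, lay on the healthy side of the midpoint between the groups for 85 of the 103 called genes (82.5%) and for 1169 of the 1888 others (61.9%).

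Of 6 tested interferon-response genes 5 rose, with a list median of 1.87 beside -0.02 for all genes tested. DESeq2 called Gbp4 and gave no adjusted p for Gbp6, Gbp7 and Psmb9. The guanylate-binding proteins Gbp6 (3.89, SE 0.59, edgeR adjusted p = 0.000705), Gbp4 (1.88, adjusted p = 0.000705) and Gbp7 (1.44, adjusted p = 0.0377), interferon-induced GTPases of cell-autonomous defence, rose, and reads of these close relatives may be split between them. Gbp6 went from 14.1, 5.58 and 5.73 CPM in the healthy mice to 118, 99.7 and 115 in the Il23mc mice, with 2.79 in the experiment 2 hashtag. Every Il23mc value of Gbp6 lies above every healthy value. Gbp4 went from 98.7, 78.1 and 120.2 CPM in the healthy mice to 236, 406 and 334 in the Il23mc mice, with 54.5 in the experiment 2 hashtag, again without overlap. Psmb9, an immunoproteasome subunit, rose by 1.85 (SE 0.44, adjusted p = 0.0168, edgeR). Of the 6 runs that left out a mouse, Gbp6 and Gbp4 were called in 6, Psmb9 in 3 and Gbp7 in 1.

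Of 8 listed genes of MHC class II presentation only 2, Cd74 and Ctss, could be tested, and both rose. DESeq2 called Cd74 and gave no adjusted p for Ctss. Cd74, the invariant chain that escorts class II molecules, went from 42.3, 5.58 and 11.5 CPM in the healthy mice to 393, 157 and 375 in the Il23mc mice, with 2.79 in the experiment 2 hashtag. The lowest Il23mc value lies above the highest healthy value, and the change was 4.39 (SE 0.55, adjusted p = 0.000153, edgeR). Ctss, the protease cathepsin S that cleaves the invariant chain, went from 0, 11.2 and 34.4 CPM in the healthy mice to 98.4, 149.5 and 104 in the Il23mc mice, with 6.99 in the experiment 2 hashtag, a change of 2.73 (SE 0.53, adjusted p = 0.00427, edgeR). H2-Oa, which tunes class II peptide loading, rose by 2.72 (SE 0.63, adjusted p = 0.0152, edgeR), but was called in only 2 of the 6 runs that left out a mouse, got no adjusted p from DESeq2 and did not pass the filter without cells that held Cd3d or Cd3e. Ctss was called in 5 of those 6 runs and Cd74 in all 6. Ctss is a marker of myeloid cells as well. Of the markers of B, dendritic and myeloid cells, which carry class II molecules, Cd79a, Ms4a1, Flt3 and Itgax had no UMI in any hashtag, the summed myeloid markers stood at 0 in healthy mice and 0 to 28.5 CPM in Il23mc mice, and the dendritic ones, all from Zbtb46, at 0 to 27.9 and 0 to 39.3 CPM. Without cells that held Lyz2, Col1a1, Cd79a or Cpa3 the change of Cd74 was 4.42, and without cells that held Cd3d or Cd3e it was 4.55.

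Of 15 tested genes of MHC class I presentation (a list added after values were seen) 8 rose, with a median of 1.08. DESeq2 called 5, and gave no adjusted p for Psmb9. B2m, the light chain of all class I molecules, went from 1762, 1764 and 1975 CPM in the healthy mice to 4033, 4429 and 4109.7 in the Il23mc mice, with 1679 in the experiment 2 hashtag. The Il23mc values of B2m are all more than 2-fold above the healthy ones, and the change was 1.29 (SE 0.17, adjusted p = 0.000183, edgeR). H2-K1, a class I heavy chain, rose by 0.91 (SE 0.19, adjusted p = 0.00813, edgeR), Tapbp (tapasin), which loads peptides onto class I, by 1.55 (SE 0.26, edgeR adjusted p = 0.00156), and Psme1, an activator of the immunoproteasome, by 1.08 (SE 0.23, edgeR adjusted p = 0.0102). The counts of H2-Q4 and H2-Q7, which also rose, are uncertain because class I genes have near-identical copies. The experiment 2 hashtag, at 258 CPM, lay on the Il23mc side for H2-Q4.

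The windows from 250 bases before to 50 after the transcript start are shown for 4 of these genes, whose windows hold letters of interferon-response motifs. They were chosen after their values were seen, from RefSeq sequence of build GRCm38.p6. Capitals mark a pair of GAAA separated by any 2 bases (ISRE-like) or TTCNNNGAA (GAS-like, gamma-activated sequence), searched on both strands. The windows are B2m (chr2:122147437-122147736, plus strand), Psme1 (chr14:55578244-55578543, plus strand), Ctss (chr3:95526536-95526835, plus strand) and Gbp7 (chr3:142530086-142530385, plus strand), the last with 2 matches to TTCNNNGAA and 1 to the GAAA pair.
B2m: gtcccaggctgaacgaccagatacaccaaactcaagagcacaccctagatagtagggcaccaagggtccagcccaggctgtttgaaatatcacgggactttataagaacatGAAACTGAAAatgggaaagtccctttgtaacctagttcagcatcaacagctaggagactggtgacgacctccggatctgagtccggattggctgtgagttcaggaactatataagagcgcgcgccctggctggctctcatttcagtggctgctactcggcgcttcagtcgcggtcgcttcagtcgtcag
Psme1: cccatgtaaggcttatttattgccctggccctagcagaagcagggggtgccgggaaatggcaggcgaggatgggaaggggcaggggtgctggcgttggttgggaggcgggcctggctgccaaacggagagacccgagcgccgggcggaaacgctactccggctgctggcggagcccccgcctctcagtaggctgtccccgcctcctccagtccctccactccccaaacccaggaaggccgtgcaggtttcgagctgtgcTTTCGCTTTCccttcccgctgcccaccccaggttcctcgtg
Ctss: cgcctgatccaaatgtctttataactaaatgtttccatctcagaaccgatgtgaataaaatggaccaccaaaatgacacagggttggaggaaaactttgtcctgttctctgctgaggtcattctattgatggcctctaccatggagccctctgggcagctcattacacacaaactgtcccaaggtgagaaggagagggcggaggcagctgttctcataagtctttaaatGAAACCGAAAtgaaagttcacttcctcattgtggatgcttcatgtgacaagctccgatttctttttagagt
Gbp7: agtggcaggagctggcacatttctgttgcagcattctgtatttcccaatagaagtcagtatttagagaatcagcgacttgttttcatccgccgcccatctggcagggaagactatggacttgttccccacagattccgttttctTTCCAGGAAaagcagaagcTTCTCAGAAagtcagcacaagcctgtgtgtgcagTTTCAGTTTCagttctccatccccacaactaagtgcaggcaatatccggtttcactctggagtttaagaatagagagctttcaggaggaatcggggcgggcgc

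A match to the GAAA pair was present in the windows of 7 of the 48 rising genes that have a promoter in the table (14.6%: B2m, Ctss, Gbp7, Ifi203, Mndal, Psme1 and Srgn), of 1 of 25 falling genes (4.00%), of 68 of 1572 tested genes (4.33%) and of 1079 of all 27025 genes (3.99%). A match to TTCNNNGAA was present in 4 of 48 rising genes (8.33%), 3 of 25 falling genes and 9.55% of all genes. Such a match is a description of letters, not of binding. The windows of a whole chromosome were left out of the search, so all genes here means all genes searched. No window was searched for Gbp4, Gbp6 and Cd74.

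Other genes with large increases have varied roles. Lilrb4a, an inhibitory immunoglobulin-like receptor, went from 0, 44.7 and 17.2 CPM in the healthy mice to 531, 384 and 409 in the Il23mc mice, with 39.1 in the experiment 2 hashtag. Its groups lie far apart, with a change of 4.11 (SE 0.40, adjusted p = 8.54e-06, edgeR), though reads of Lilrb4a and its near copy Lilr4b (2.37) may be split between them. Ly6a, Hilpda and Dgat1 are named after their values were seen. Ly6c1, a surface protein of circulating lymphocytes and myeloid cells, rose by 4.34 (SE 0.71, adjusted p = 0.00112, edgeR) and Ly6a (Sca-1) by 2.47 (SE 0.27, edgeR adjusted p = 3.48e-05), and these too have close relatives. Among further rising genes were the droplet coat protein Plin2 (3.05, SE 0.56, edgeR adjusted p = 0.00291), Hilpda (2.63) and the triglyceride enzyme Dgat1 (1.68). Plin2 went from 0, 5.58 and 34.4 CPM in the healthy mice to 98.4, 114 and 161 in the Il23mc mice, with 36.3 in the experiment 2 hashtag. The chemokine Ccl5 rose by 2.95 (SE 0.69, adjusted p = 0.0159, edgeR) and the noncoding RNA Bc1 by 2.80 (SE 0.64, edgeR adjusted p = 0.0151), both from 0 in at least 1 healthy mouse. Without Il23mc mouse 3, Ly6c1 (adjusted p = 0.09, edgeR), Plin2 (0.118), Hilpda (0.0546), Ccl5 (0.365) and Bc1 (0.397) did not pass, and Dgat1 was called in 3 of the 6 runs that left out a mouse. DESeq2 did not call Bc1 (adjusted p = 0.162) and gave no adjusted p for Ly6c1, Plin2, Ccl5 and Dgat1.

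Among genes that fell were many of the cytoskeleton and its membrane links. Of 25 tested genes of S100 proteins, annexins and cytoskeleton (a list added after values were seen) 14 fell and 0 rose (median -1.03). Crip1, a LIM-domain protein, went from 7879, 5810.2 and 7758 CPM in the healthy mice to 1495, 1752 and 1925 in the Il23mc mice, with 5098 in the experiment 2 hashtag. The healthy values of Crip1 lie at least 2-fold above all Il23mc values, and the change was -1.93 (SE 0.19, adjusted p = 8.54e-06, edgeR). Lmna, which encodes the nuclear lamins A and C, went from 677, 463 and 613 CPM in the healthy mice to 98.4, 149.5 and 133 in the Il23mc mice, with 870.4 in the experiment 2 hashtag, a change of -2.00 (SE 0.27, adjusted p = 0.000248, edgeR). Vim (vimentin, -1.15), S100a6 (-1.06), S100a4 (-0.75), Lgals1 (-1.42), Anxa1 (-1.23) and the hyaluronan receptor Cd44 (-1.24) fell as well, and some of these were picked after their values were seen. For S100a6, S100a4 and Cd44 the experiment 2 healthy hashtag (2624, 2219.9 and 379 CPM) lay nearer the Il23mc mice. Dmxl2, a regulator of vesicle acidification, showed the largest fall, from 282, 268 and 229 CPM in the healthy mice to 19.7, 28.5 and 63.4 in the Il23mc mice, with 201 in the experiment 2 hashtag. That change was -2.43 (SE 0.37, adjusted p = 0.000772, edgeR). Emp1 (-2.31), the phosphate transporter Slc20a1 (-2.14), Rgcc (-2.08), the platelet-activating factor receptor Ptafr (-2.02, adjusted p = 0.0491, edgeR), Myadm (-1.95), the glycolytic enzyme Eno1 (-1.85) and the septin Sept11 (-1.79) complete the named decreases. Of the 6 runs that left out a mouse, Emp1 was called in 3, Vim and Lgals1 in 4, and Cd44 and Eno1 in 5. Crip1, Lmna, S100a6, Dmxl2, Rgcc, Myadm and Sept11 were called in all 6. Without cells that held Cd3d or Cd3e, Emp1 did not pass (adjusted p = 0.0733, edgeR). DESeq2 gave no adjusted p for Emp1 and Eno1.

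**Figure D4:**
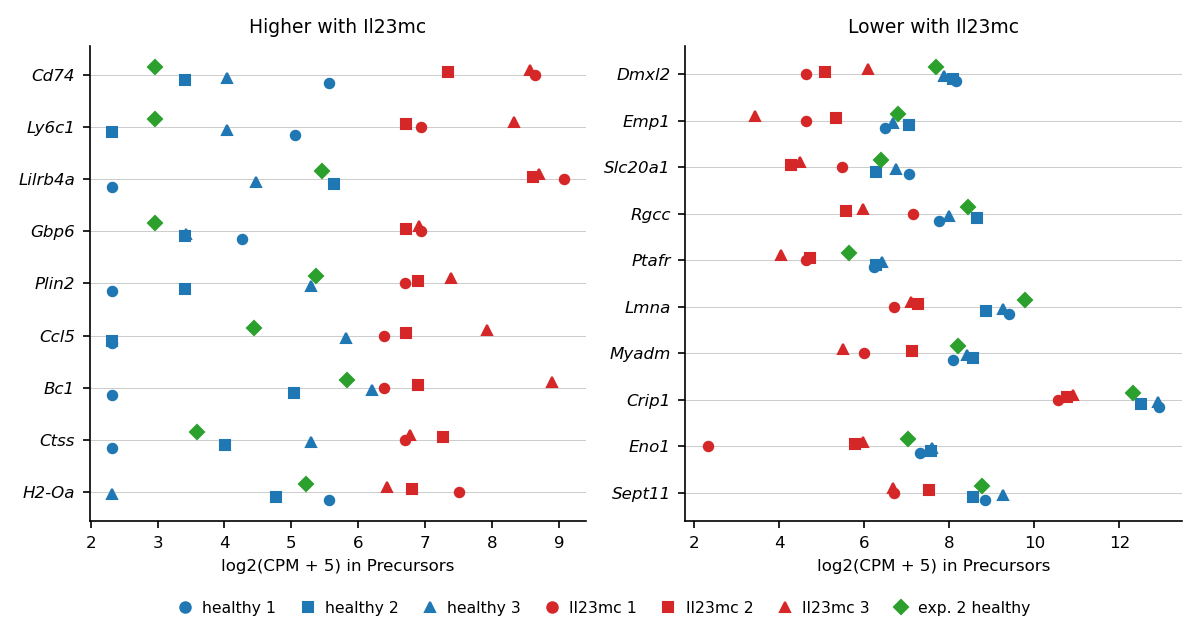
Levels in Precursors, as log2(CPM + 5), of 9 named genes that rose (left) and 10 that fell (right) with Il23mc, with 1 point per hashtag. Genes were named only if the 3 Il23mc mice did not overlap the 3 healthy mice, so that separation comes from the choice. The experiment 2 healthy hashtag, which had no part in the choice, lies on the healthy side.

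For genes that define a precursor or an ILC2, the counts of calls come from short lists. Over all genes the test called 103 of 1991 (3.62% higher and 1.56% lower). At those shares, 0 or few calls in a short list are no finding about its genes. Of 13 tested genes of the precursor list none passed (edgeR; 1, Kit, had an unadjusted p under 0.05, and DESeq2 called none), with a median of -0.03. Id2 (0.31, SE 0.25, edgeR adjusted p = 0.583), Il7r (0.28, adjusted p = 0.56) and Gata3 (-0.17, adjusted p = 0.758) did not pass, and Tcf7, Zbtb16, Il5 and Il13 did not pass the expression filter of this test. Of 12 tested ILC2 markers Icos (0.89, SE 0.25, edgeR adjusted p = 0.0479) and Calca (2.67, adjusted p = 0.0418), which encodes the neuropeptide CGRP, rose. Calca stood at 141, 0 and 45.8 CPM in the healthy mice, 39.3, 534 and 149.9 in the Il23mc mice and 54.5 in the experiment 2 hashtag, with Il23mc mouse 2 far above the rest and overlap between the groups. Icos was called in 1 and Calca in 3 of the 6 runs that left out a mouse, and DESeq2 called neither. Areg (1.23, SE 0.46, edgeR adjusted p = 0.153) and Bcl2 (0.87, adjusted p = 0.0678) did not pass. None of 7 tested cytokine receptor genes, 4 cell cycle genes or 4 alarmin receptor genes passed (edgeR; 2, 0 and 0 with an unadjusted p under 0.05, and none by DESeq2). Lists this short would often hold no call at the shares of all genes given above. Il17a and Il22, which ILC3 of Il23mc mice hold at up to 2671 and 3268 CPM, stood at 0 to 78.3 CPM and 0 to 135 CPM in Precursors. Without cells that held Cd3d or Cd3e, Il17a was at 83.7, 38.9 and 81.5 CPM in ILC3 of the Il23mc mice and 44.5, 30.2 and 0 in Precursors, and Il22 at 36.6, 32.4 and 1689 in ILC3 and 22.2, 20.1 and 19.4 in Precursors.

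Cells with T cell genes were more frequent in each Il23mc mouse than in any healthy mouse of that experiment. A UMI of Cd3d or Cd3e was present in 0 to 4.88% of Precursors of a healthy mouse and in 8.33 to 16.7% of an Il23mc mouse, and the summed T cell markers reached 870 to 973 and 744 to 1652 CPM. Cd3g, a further subunit of that complex, went from 14.1, 33.5 and 143 CPM in the healthy mice to 197, 449 and 179 in the Il23mc mice, with 88 in the experiment 2 hashtag, a change of 2.03 (SE 0.48, adjusted p = 0.0168, edgeR) that did not pass without those cells (adjusted p = 0.0934, edgeR). With those cells removed 103 genes were called, 71 higher and 32 lower, and 79 of the 93 called genes that could be tested again were called again. In the opposite direction, the B cell gene Ighm and the globin gene Hba-a1 gave summed marker levels of 28.6 to 70.5 and 22.3 to 108.8 CPM in Precursors of healthy mice and 0 in the Il23mc mice, and ILC2 of the healthy mice held 25.2 to 48.0 and 26.1 to 89.7 CPM. The median mitochondrial share of Precursors was 6.03 to 6.69% in healthy and 4.81 to 5.73% in Il23mc mice. Their median number of genes per cell was 1324 to 1423 in healthy and 1040.5 to 1296 in Il23mc mice, and the Malat1 share 3.36 to 3.53 and 2.30 to 3.12%. The ribosomal share was 40.0% in Il23mc mouse 3 and 28.2 to 33.2% in the other 5 mice. The part of these values in the results was not tested.

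Between Precursors and ILC2, the change with Il23mc was called different for a single gene. Both classes come from the same mice and wells, and a test of the difference itself (edgeR, with a term for each mouse) called 1 of 5707 genes (0.0175% higher, 0.0% lower), with 258 at an unadjusted p under 0.05. That gene is the predicted gene Gm42031, named here because the count is 1, and 0 genes were called without healthy mouse 2 (edgeR, 240 with an unadjusted p under 0.05, DESeq2 not run without this mouse). It stood at 0, 16.7 and 0 CPM in Precursors of healthy mice and 315, 71.2 and 213 in those of Il23mc mice, while its ILC2 levels overlapped between the groups (28.9, 352 and 14.2, and 375, 40.9 and 361). The 5 smallest unadjusted p in each direction, none of which passed, belonged to Nfkbia (1.09), Sla (1.53), Pim1 (0.97), Zfp36l2 (0.87) and Bop1 (4.47), and to Hsph1 (-1.76), Dnaja1 (-0.87), Crip1 (-0.60), Golgb1 (-1.36) and Tmem87a (-3.47), with values as the log2 change in Precursors minus that in ILC2. The median SE of a difference was 0.63 on the log2 scale, so that a p that misses the threshold does not show equal changes. For Cd74 the difference was 0.54 (95% interval -1.02 to 2.09). For B2m it was -0.05 with an SE of 0.18. For Tcf7 it was -0.87 and for Il13 -3.34, with unadjusted p = 0.263 and 0.00572 (edgeR), neither of which passed after adjustment. Of the 103 genes called in Precursors, 101 had the same direction in ILC2 (98.1%) and 83 were called there (80.6%), beside 69.0 and 5.61% of the 1888 others, with a median change of 1.69 for the risers in Precursors and 1.11 in ILC2. The genes were chosen on the Precursors values, so the larger size there is no finding.

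Against ILC3, the difference of the change was called for 59 of 2929 genes, 34 more positive in Precursors (1.16%) and 25 more negative (0.854%). The count went to 0 (edgeR; 230 genes with an unadjusted p under 0.05 of 2681, and DESeq2 was not run on these cells) when cells with a Cd3d or Cd3e UMI were left out, which takes ILC3 from 462 to 52 cells in Il23mc mouse 1, from 221 to 41 in mouse 2 and from 28 to 21 in mouse 3. The median size of the difference over these genes fell from 2.13 to 1.05 in that setting, and 53 of the 54 that could be tested kept their sign. Leaving out a mouse gave 9 calls (without healthy mouse 2) to 134 (without Il23mc mouse 3), and 18, 26 and 37 without healthy mouse 3, Il23mc mouse 1 and Il23mc mouse 2. Upper-quartile scaling gave 111 calls, of which 89 (80.2%) were more positive in Precursors, in place of 57.6%.

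**Figure D5:**
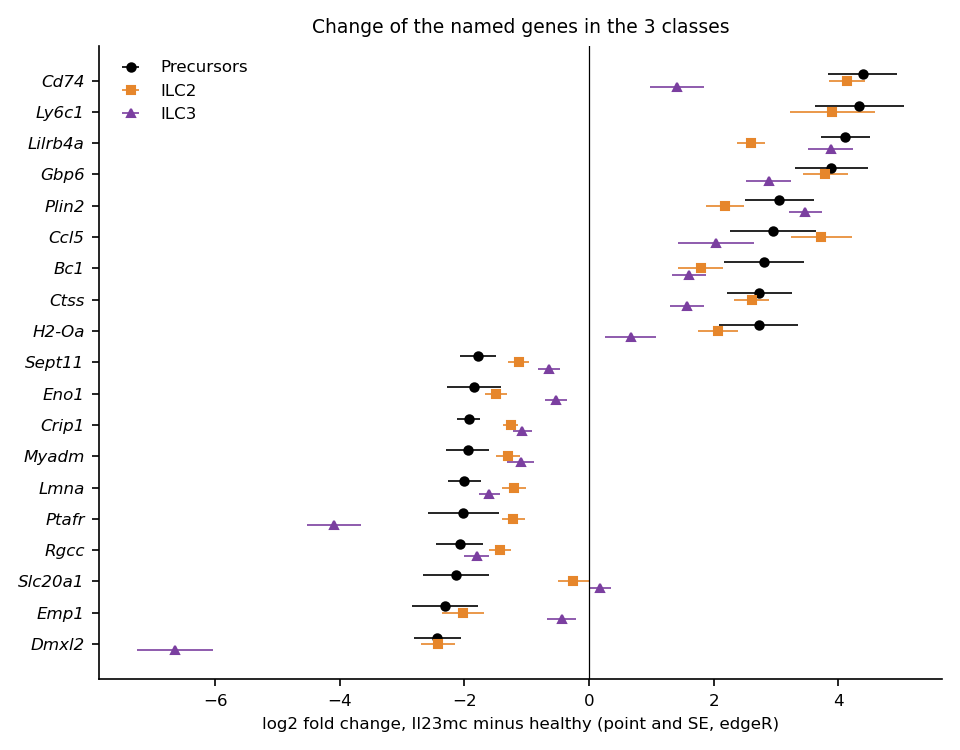
Log2 fold change (Il23mc minus healthy, with SE, edgeR) of 19 named genes in Precursors, ILC2 and ILC3, each class tested on its own. Points of Precursors and ILC2 lie on the same side of 0 for all 19, and Ly6c1 could not be tested in ILC3.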

How the data were processed

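Single-cell RNA and hashtag counts of sorted synovial ILCs were analysed for the 7 hashtags that hold annotated cells. The authors deposited UMI counts per gene and cell, made with cellranger 6.1.2 per the file headers (Cell Ranger 6.0.6 and build mm10 per the submitters' processing notes). The authors' deposited table also gives, per cell, the annotation, hashtag, a mitochondrial percent or fraction, and cell cycle and stress scores, and how each score was made is not given in the sources used here. All 4491 ILC cells of that table matched a barcode with the same UMI total. Doublets were treated only as that table leaves them, and no further caller was run.

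Counts were summed per class and hashtag (at least 10 cells). Class differences are log2 of CPM with 5 CPM added, for genes of at least 50 CPM in either class, without a test. Conditions were tested with edgeR 4.0.16 (quasi-likelihood, TMM, R 4.3.3), with Benjamini-Hochberg adjustment over all genes tested, and SE is the absolute log2 change divided by the square root of F. DESeq2 1.42.0 was an alternative, with other scaling and filters, each mouse left out, a replicate block, cells with Cd3d or Cd3e or other markers left out, and the experiment 2 hashtag added. Detection was compared after thinning to 2000 UMIs. The fitting code was tested on simulated data with 100 genes changed at each size. Of 2-fold changes 40% were recovered between conditions, 7% in the difference from ILC2 and 18% in that from ILC3. Of 4-fold changes 77, 51 and 71% were recovered, with 11, 3 and 3 false calls. Shares used an exact permutation test.

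Named genes are the 12 (ILC2) or 8 (ILC3) largest differences per direction with 1 sign in every hashtag, up to 10 per direction past a test's threshold without overlap and with at least 20 CPM in 1 group, up to 4 members per list, and the markers. Sex-linked, mitochondrial, ribosomal, immunoglobulin, T cell receptor variable and predicted genes were left out of the first 2 rules. The members and gene lists were chosen with earlier results of these data known. The labels give 4 animals per well and the files 3 hashtags, taken here as 1 mouse each in experiment 1. If a hashtag pools animals, the spread is between pools. Some genes that these rules would name are not reported here.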

Additional observations from a re-analysis of the deposited data

Results flagged for a closer look

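The change with Il23mc differed between Precursors and ILC2 for 1 gene and between Precursors and ILC3 for 59 genes, by edgeR's test of the difference. The largest differences from ILC3, in log2 units as the change in Precursors minus that in ILC3, were positive for Sema6d (3.76), Cd81 (3.25), Tapbpl (3.02), Cd74 (2.97), Cd27 (2.95), Socs2 (2.81), Hopx (2.40), Nr4a2 (2.37), Inpp4b (2.34) and Bmp2 (2.32). They were negative for Ifitm3 (-5.99), Trib2 (-3.16), Npnt (-2.85), Cstb (-2.64), Uspl1 (-2.62), Acadl (-2.38), Mmp25 (-2.31), Hsph1 (-2.29), Adam19 (-2.28) and Arap2 (-2.23). None of these 20 kept its call in every alternative, and 0 genes were called without cells that held Cd3d or Cd3e (edgeR, 230 with an unadjusted p under 0.05, DESeq2 not run on these cells).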

How the results depend on the processing

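The difference in the share of Precursors turned from 0.880 to -0.755 percentage points among Precursors and ILC2 alone, to -0.107 in cells with at least 3000 UMIs and to -0.104 with the experiment 2 hashtag, and ranged from -2.50 to 3.71 when each mouse was left out. Genes above ILC2 numbered 12 under TMM scaling, 14 with 20 CPM added and 85 in healthy hashtags only, genes below ILC2 291 under TMM scaling, and genes above ILC3 83 with 20 CPM added, settings chosen after seeing the data. Calls for Il23mc against healthy ranged from 43 to 95 when each mouse was left out. The difference from ILC2 was called for 2 genes with upper-quartile factors, without cells holding Cd3d or Cd3e, without cells holding other markers and with at least 20 cells per hashtag, for 5 without the filter, and for 0 to 7 when each mouse was left out. The difference from ILC3 was called for 111 genes with upper-quartile factors, 0 without cells holding Cd3d or Cd3e, 37 without cells holding other markers, 26 with at least 20 cells per hashtag, and 9 to 134 when each mouse was left out. The cause of these shifts was not tested. Of the 20 named genes 10 lost no call in any setting that gave an adjusted p (DESeq2 gave none for Gbp6), among them Cd74, Crip1, Dmxl2, Gbp6, Lilrb4a, Lmna, Myadm, Rgcc and Sept11. With the mouse number as a replicate block, 75 genes were called; same-numbered mice correlated at 0.05, -0.00 and -0.03, and they share only a number. With 13 to 48 Precursors per mouse, genes of low level such as Tcf7, Zbtb16, Il5 and Il13 did not pass the expression filter of the test between conditions.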
